A study of Mus musculus with 2 samples.

Results

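Internal coding exons are the protein-coding exons of a gene other than the one with the start codon and the one with the stop codon. The cytosines described here lay in such exons on the mouse autosomes, more than 2 kb from any annotated transcription start and outside computed CpG islands. They had at least 5 reads in both libraries and lay outside the CCGG and TCGA sites at which the DNA was cut. This left 63276 cytosines, or 1.85% of the 3416032 covered cytosines of the series, at 36279 CpGs. They fell in 14502 exons of 6700 genes, which is 9.41% of the 154142 internal coding exons annotated on the autosomes. The median exon held 3 covered cytosines and 4411 exons held at least 5, leaving out 156 cytosines that lie in exons of 2 genes. For comparison, 50601 cytosines chosen in the same way lay in the flanking intron, up to 500 bp from the exon edge.

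The DNA came from myotubes, the multinucleate muscle cells that form when cultured mouse C3H myoblasts fuse, which were transfected for 48 h with small interfering RNA, either directed at H19 (siH19) or a control (siCon). H19 is a long non-coding RNA made from an imprinted locus, and the study asked whether lowering it changes DNA methylation. Methylation was read by reduced representation bisulfite sequencing with MspI and TaqαI: DNA is cut at CCGG and TCGA, short fragments are kept, and bisulfite converts unmethylated but not methylated cytosines, so that the share of reads with C is the methylation level. There was 1 library per group, both of the same cell line, so no value has an error between cultures, and a test between the libraries compares those libraries and not the conditions. These files hold no RNA, so neither the knockdown nor the muscle identity of the cells was checked here against marker genes. The study itself reported lowered H19, measured by PCR, in myotubes transfected with siH19. Over all positions, the libraries had a median depth of 12 and 13 reads per cytosine. The exon cytosines had median depths of 21 reads in siCon and 20 in siH19, with 1535264 and 1649123 reads summed over cytosines. Bounds given with a level are 95% Wilson intervals on reads summed over cytosines, and take in no error between cultures. They count a read once for each CpG it covers, and copies of a molecule made by PCR cannot be told from separate molecules. The bounds are therefore too narrow even for counting error.

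In mammals the bodies of transcribed genes are usually heavily methylated, whereas CpG islands at promoters are usually not. RNA polymerase II carries the histone methyltransferase SETD2, which marks transcribed chromatin with trimethylated lysine 36 of histone H3, and the de novo DNA methyltransferase DNMT3B binds that mark. DNMT1 then copies methylation to the new strand after replication. Coding exons differ from introns in base composition as well as in function, since the genetic code fixes many of their CpGs.

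The exons on which the results below turn are shown first, each 5′ to 3′ on the coding strand of its gene, from the reference sequence of GRCm38. CG in capitals marks a CpG whose cytosines were covered on at least 1 strand and counted, and CpGs in lower case lay in a cut site or had too few reads. Stat3 and Wdfy4 hold exons with almost no methylation. Acacb and Kif5a hold exons far above their own flanking intron, and Mast1 and Prkd2 exons far below it. Actn3 and Sptb hold exons that differed between the libraries when every cytosine was counted. The positions were chr11:100893665-100893804 for Stat3 (minus strand, coding exon 19 of 23) and chr14:33154010-33154116 for Wdfy4 (minus, 3 of 61). The Acacb exon was at chr5:114210905-114211093 (plus, 20 of 52), the Kif5a exon at chr10:127231292-127231508 (minus, 24 of 28), the Mast1 exon at chr8:84918053-84918231 (minus, 19 of 26) and the Prkd2 exon at chr7:16858379-16858540 (plus, 14 of 18). The Actn3 exon was at chr19:4862324-4862470 (minus, 18 of 21) and the Sptb exon at chr12:76606246-76606524 (minus, 22 of 35).
Stat3: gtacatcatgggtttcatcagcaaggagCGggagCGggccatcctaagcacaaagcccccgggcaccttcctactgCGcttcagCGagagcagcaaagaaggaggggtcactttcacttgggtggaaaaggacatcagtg
Wdfy4: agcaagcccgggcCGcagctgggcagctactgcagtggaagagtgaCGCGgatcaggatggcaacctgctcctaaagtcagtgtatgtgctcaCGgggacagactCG
Acacb: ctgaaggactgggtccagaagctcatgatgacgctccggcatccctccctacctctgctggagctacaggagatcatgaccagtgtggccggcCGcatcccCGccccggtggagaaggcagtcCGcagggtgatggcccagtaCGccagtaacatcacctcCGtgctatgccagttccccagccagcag
Kif5a: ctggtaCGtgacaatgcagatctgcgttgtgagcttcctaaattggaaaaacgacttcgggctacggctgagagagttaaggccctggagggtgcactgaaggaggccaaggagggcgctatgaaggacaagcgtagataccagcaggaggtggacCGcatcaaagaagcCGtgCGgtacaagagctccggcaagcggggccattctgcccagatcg
Mast1: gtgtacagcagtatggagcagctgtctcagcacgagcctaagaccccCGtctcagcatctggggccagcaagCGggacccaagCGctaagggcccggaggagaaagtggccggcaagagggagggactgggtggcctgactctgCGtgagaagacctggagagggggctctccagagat
Prkd2: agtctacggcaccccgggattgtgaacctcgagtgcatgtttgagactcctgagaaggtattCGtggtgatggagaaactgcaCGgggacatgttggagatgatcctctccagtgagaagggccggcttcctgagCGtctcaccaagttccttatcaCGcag
Actn3: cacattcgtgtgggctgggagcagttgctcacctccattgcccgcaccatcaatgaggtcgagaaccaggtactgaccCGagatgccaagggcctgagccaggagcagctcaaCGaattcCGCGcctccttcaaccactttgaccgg
Sptb: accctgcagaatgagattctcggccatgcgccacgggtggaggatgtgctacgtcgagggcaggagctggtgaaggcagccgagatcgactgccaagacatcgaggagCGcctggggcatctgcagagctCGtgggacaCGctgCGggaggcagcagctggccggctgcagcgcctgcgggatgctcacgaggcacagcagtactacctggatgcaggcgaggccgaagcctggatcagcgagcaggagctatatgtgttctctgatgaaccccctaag

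Exon cytosines were mostly methylated in both libraries. The mean level of the 63276 cytosines came to 71.9% in the siCon and 72.0% in the siH19 library, which differ by 0.064 points. Summed over reads, the levels were 68.3% (interval 68.3 to 68.4%) in siCon and 68.9% (68.8 to 69.0%) in siH19. Most cytosines lay near the ends of the scale: 58.7% of them had a level of at least 80% in siCon and 58.8% in siH19, while 12.7% and 12.5% were under 20%. The coding strand (72.1% and 72.1%) and the template strand (71.8% and 71.9%) had nearly the same mean. By autosome, the mean level in siCon ran from 67.4% on chromosome 13 to 76.4% on chromosome 10, and siH19 was the higher library on 13 of 19 autosomes (range of differences -0.40 to 0.27 points). First coding exons outside islands and away from starts had 70.6% in siCon and 71.1% in siH19 over 4050 cytosines, and last coding exons 73.2% and 73.4% over 14064.

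Exons stood above the intron beside them. The flanking intron had a mean level of 66.3% in siCon and 66.4% in siH19, which put exons 5.62 points higher in siCon and 5.55 points higher in siH19. The exon mean was the higher one on 19 of 19 autosomes in both libraries, by 1.29 to 10.7 points in siCon and by 1.49 to 10.2 points in siH19. Summed over reads, chromosome 13 was an exception, where exon minus flank was 0.877 points in siCon and -0.163 points in siH19. Fewer intron cytosines were at 80% or more (51.8% and 51.7%) and more were under 20% (16.9% and 16.6%). The step lay close to the splice sites. In bins of 50 bp the intron had levels of 63.0 to 68.7% in siCon, and in bins of 25 bp the outer 100 bp of the exon had 69.9 to 73.3%, so that no exon bin was as low as any intron bin. The same held in siH19, at 63.7 to 68.8% for intron bins and 70.0 to 73.4% for exon bins. At the acceptor the last 50 bp of intron had 66.0% in siCon and the first 25 bp of exon 69.9%. At the donor the last 25 bp of exon had 71.7% and the first 50 bp of intron 68.7%.

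**Figure D1:**
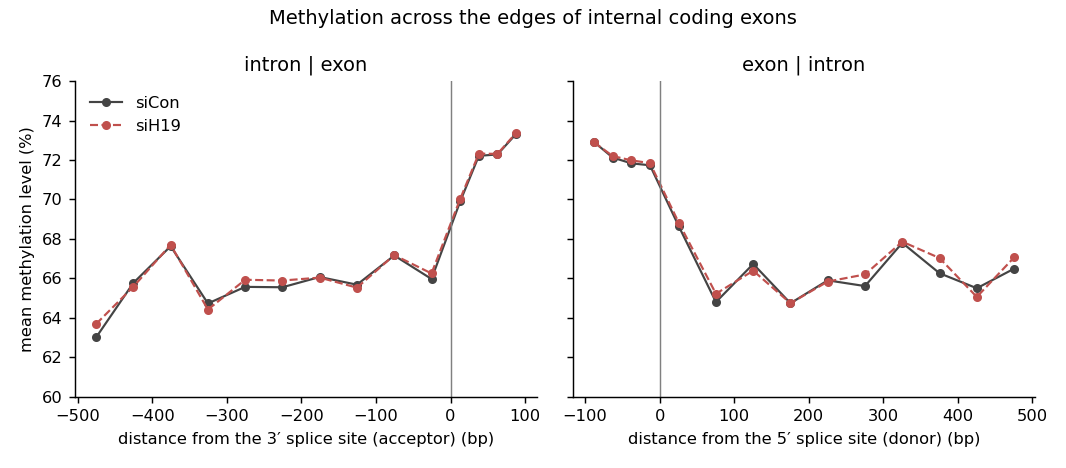
Mean methylation level (%) by distance in bp from the acceptor (left, intron then exon) and the donor (right, exon then intron) of internal coding exons, siCon solid and siH19 dashed; each point is 1 bin, and the axis starts at 60%. Exon bins lie at 69.9 to 73.4% and intron bins at 63.0 to 68.8%, and the libraries nearly coincide.

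Exons and their flanks differed in composition too. The annotated exons were 50.6% GC with an observed to expected CpG ratio of 0.379 and 3.89% repeat-masked bases, and the flanks were 43.7% GC with a ratio of 0.196 and 21.2% masked bases. Repeats made little difference: outside them exons stood 5.29 points above the flank in siCon and 5.23 in siH19. CpG density, counted within 100 bp on either side, had a median of 8 around exon cytosines and 5 around flank cytosines. Within classes of equal density, and outside repeats, the exon was above the flank in each of 6 classes and in both libraries. The gap was 1.42 points in siCon and 1.43 in siH19 where there were 1 to 3 CpGs, and 6.74 and 6.90 points where there were 12 or more. With the flank weighted to the density of the exons, the difference was 3.59 points in siCon and 3.54 in siH19. On the 4018 restriction fragments that held both exon and flank cytosines, where both were read from the same DNA ends, exons had 72.7% against 67.5% in siCon and 72.7% against 67.8% in siH19. What part base composition has in the remaining difference was not tested.

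Single exons went both ways about that mean. Exon and flank each had at least 5 covered cytosines in 384 pairs from 350 genes. The exon was the higher one in both libraries in 201 pairs and the lower one in both in 125, and the pair differences had an SD of 22.8 points in siCon around a mean of 6.06. Reads summed over exon and over flank were compared by Fisher's exact test in each library. With an adjusted p under 0.05 and at least 10 points in both, 163 pairs were called (42.4%), of which 111 pairs had a higher exon (28.9% of those tested) and 52 a lower exon (13.5%). Neighbouring cytosines are read by the same molecules, which this test counts separately. With only the deepest cytosine of each restriction fragment and strand, a setting chosen after the data were seen, 66 and 36 pairs were called. In the called pairs with a higher exon the median levels in siCon were 82.2% for the exon and 43.6% for the flank, and in those with a lower exon 49.8% and 84.9%.

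Of the called pairs, 23 with a higher and 13 with a lower exon had at least 8 covered cytosines on each side, and those of them with the largest gaps are given with their levels in each library. In Kif5a, a kinesin heavy chain of neurons, 8 exon cytosines had 89.5% in siCon and 94.9% in siH19, against 39.1% and 35.6% at 8 flank cytosines (Fisher's exact test, adjusted p = 1.13e-18 and 2.38e-19). In Acacb, the mitochondrial acetyl-CoA carboxylase, 10 exon cytosines had 82.6% and 82.7% against 36.4% and 35.0% at 14 flank cytosines (Fisher's exact test, adjusted p = 2.74e-15 and 7.78e-23). The Acacb exon was not even: the CpG at a tyrosine codon had 65.0% and 64.1% on its strands in siCon, and the cytosines nearest the start of the covered stretch 83.3 to 100%. Those cytosines had only 6 reads each in siCon. In siH19, with 14 to 21 reads, they had 85.7 to 100%, against 62.5% and 62.8% at the tyrosine codon. Rasgrp2, an exchange factor for the small GTPase Rap1, had 61.3% and 67.9% over 14 exon cytosines at chr19:6413085-6413226, against 21.6% and 23.5% in the flank. These 3 exons were also called with the deepest cytosines alone. 2900026A02Rik (93.6% and 92.0% at chr5:113097598-113097838, flank 46.4% and 45.5%) and Ankmy1 (72.3% and 75.0% at chr1:92877011-92877124, flank 33.7% and 28.4%) were not, with adjusted p of at least 0.492 in that test.

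Other exons lay far below their flank. In Mast1, a microtubule-associated kinase, 8 exon cytosines had 18.7% in siCon and 17.6% in siH19, against 61.3% and 62.5% at 16 flank cytosines (Fisher's exact test, adjusted p = 1.5e-57 and 7.22e-49). Along the Mast1 sequence shown above, the first counted CpG had 0 to 4.17% on its strands and libraries, and the last 48.1 to 56.5%. In Prkd2, protein kinase D2, the exon had 53.5% and 48.5% and the flank 90.2% and 89.2%. The first 2 counted CpGs of the Prkd2 exon had 0 to 37.5% and the last 2 had 73.0 to 100%, so that its mean joins a lowly and a highly methylated stretch. In Cntn1, a neuronal adhesion molecule, the exon at chr15:92317917-92318073 had 1.89% and 1.76% and the flank 34.5% and 34.9%. Nphp4, a protein of the ciliary transition zone, had 56.9% and 54.96% at chr4:152544299-152544459 against 84.0% and 86.5%, and Fbxl19, an F-box protein with a CpG-binding domain, 48.1% and 45.9% at chr7:127767445-127767663 against 75.4% and 76.6%. These 5 were also called with the deepest cytosines alone, whereas Csmd2 (12.1% and 23.3% at chr4:128394902-128395090, flank 48.6% and 48.4%) was not.

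**Figure D2:**
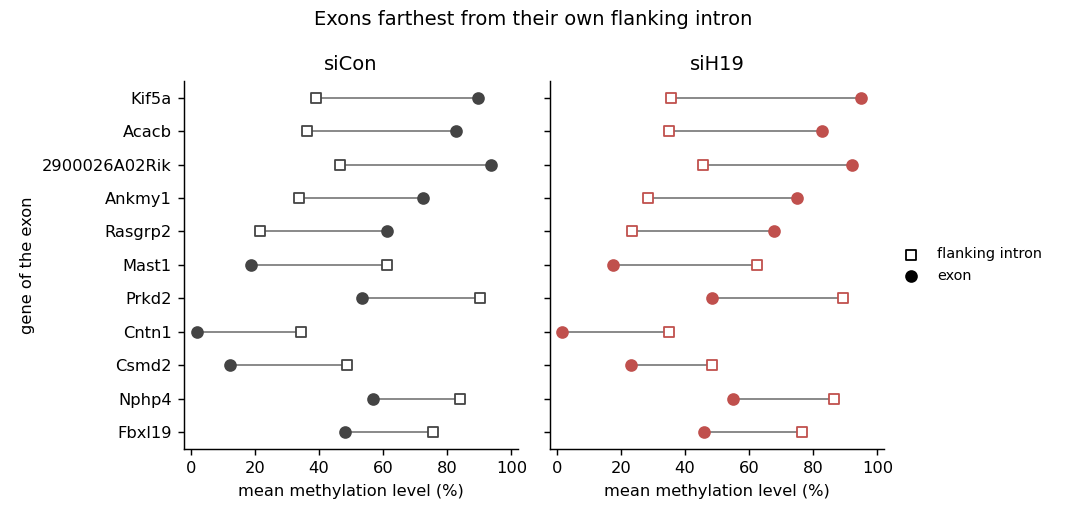
Mean methylation level (%) of exons (filled circles) and of their own flanking intron (open squares) in siCon (left) and siH19 (right), for 5 called pairs with the largest positive and the 6 with the largest negative difference, each with at least 8 covered cytosines on each side. Each pair keeps its direction in both libraries, as the choice of pairs requires; Kif5a has the widest positive gap, at 50.4 and 59.3 points.

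The level of an exon CpG also went with its place in the codon. A CpG starts at codon position 1 only in the arginine codons of the form CGN, at position 2 in codons that end in CG, and at position 3 where a codon ending in C meets one that begins with G. Position 1 had the highest mean level, 74.8% in siCon and 74.9% in siH19 over 22534 cytosines. Position 2 had 71.8% in both libraries over 14511 cytosines, and position 3, where many changes leave the amino acid as it is, had 69.5% and 69.6% over 25794. Within the 4172 exons that held both, position 1 was above position 3 by a mean of 3.58 points in siCon and 3.79 in siH19. The sign was not the same in every exon: in siCon position 1 was the higher one in 2162 exons and the lower one in 1714. The bases beside the CpG moved the level by more than the codon position did. In siCon, position 1 ran from 65.8% in the context ACGT to 82.0% in GCGC, and position 3 from 62.2% in ACGT to 77.4% in CCGC. With the bases on either side held fixed, position 1 was above position 3 in 14 of 14 contexts in siCon and in 13 of 14 in siH19. The exception was CCGA, at 70.2% against 70.5% in siH19 and 70.6% against 70.4% in siCon. The neighbouring bases were read on the strand of each cytosine. Both strands of a CpG therefore fall in mirrored contexts, such as ACGA and TCGT, and only ACGT and GCGC mirror themselves. Most contexts thus hold largely the same CpGs as another one, so the 14 are not separate comparisons. Among codons ending in C, those of the CTC type had the lowest mean level (61.1% and 61.3%) and those of the CGC type, in which another CpG precedes, the highest (82.1% and 82.2%).

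**Figure D3:**
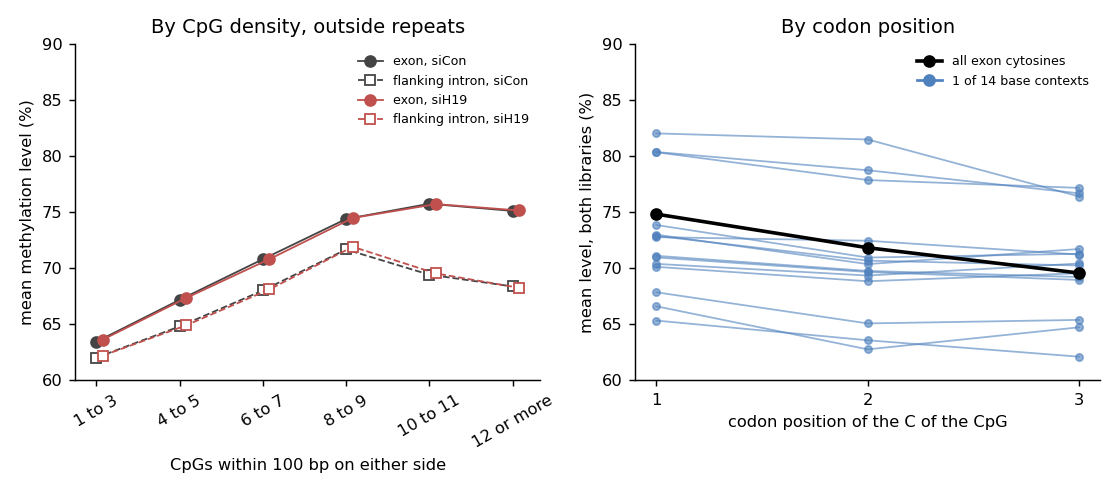
Left, mean methylation level (%) of exon (filled) and flanking-intron cytosines (open) outside repeats by the number of CpGs within 100 bp on either side, siCon in grey and siH19 in red; right, mean level over both libraries (%) by codon position, in black for all exon cytosines and in blue for each of 14 contexts of neighbouring bases. Both axes start at 60%; the exon is above the flank in each density class, and the black line falls from 74.8% at position 1 to 69.6% at position 3.

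Exon levels were lowest far from the transcription start. Cytosines 2 to 50 kb from the nearest transcription start had mean levels between 71.2 and 74.7% in siCon in 5 distance classes, and those more than 50 kb away had 62.1% in siCon and 61.8% in siH19 over 5551 cytosines. The flanking intron was lower there too, at 57.0% and 57.2%, so that the exon remained 5.07 points above it in siCon and 4.60 in siH19. Genes with 3 to 5 coding exons had 66.5% in siCon, those with 11 to 20 had 73.8%, and those with more than 40 had 68.4%. By exon length the level did not move in one direction: exons up to 80 bp had 70.2% in siCon, the 4 classes between 81 and 1000 bp 70.5 to 73.4%, and exons longer than 1000 bp 75.9%. Within an exon, cytosines in the part from 0.75 of its length to the end had 73.3% and those before 0.25 of it 71.1%.

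Exon by exon, the same levels were found in both libraries. The 4411 exons with at least 5 covered cytosines had a median of 83.4% in siCon and 84.0% in siH19, and as a description their levels correlated at r = 0.983 over these exons, which share their sequence and cut sites. In both libraries 2319 of them (52.6%) were at 80% or more and 225 (5.10%) were under 20%. Neighbouring covered exons of a gene, a median of 5239 bp apart, correlated at r = 0.53 in both libraries over 1482 pairs. Among 2091 exons with at least 8 cytosines and 100 reads per library, summed over cytosines, 95 from 90 genes were under 20% in both.

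The 10 lowest of these exons had mean levels under 3.4% in each library. With the cytosines in cut sites kept they had 8.89 to 22.0%, averaged over both libraries, among them Wdfy4 with 8.89%, Stat3 with 12.8% and Rin2 with 20.9%. They were chosen for those levels, so the values are a description. In Wdfy4, a protein needed for cross-presentation by dendritic cells, 10 cytosines had 1.27% in siCon and 0.27% in siH19, and no single cytosine exceeded 4.35%. In Stat3, the transcription factor of cytokine signalling, 8 cytosines had 1.28% and 2.01%, with a highest single value of 11.5%. Each of these values rests on at least 164 reads per library when reads are summed over cytosines. A read counts there once for each CpG it covers, so the separate reads are fewer. The summed reads of the Stat3 exon gave 1.72% (0.739 to 3.97%) in siCon and 2.44% (0.953 to 6.10%) in siH19, and these bounds are too narrow for the same reason. The longest of the 10 was the Rin2 exon of 1161 bp at chr2:145860014-145861174, in a regulator of the small GTPase Rab5, with 1.06% and 1.24% over 24 cytosines. The Dscaml1 exon at chr9:45447665-45447982, in a neuronal adhesion molecule, had 2.11% and 2.63% over 20 cytosines. The Cntn1 exon described above was again among them. Also among them were Ccdc60 (2.11% and 1.45%, chr5:116180804-116180911), the guanine nucleotide exchange factor Def6 (1.67% and 2.52%, chr17:28226101-28226299), the transcription factor Ebf4 (3.32% and 1.07%, chr2:130365460-130365657) and the chromatin remodelling subunit Dpf3 (2.72% and 2.11%, chr12:83350788-83350895). A further setting, chosen after seeing the data, left out every 200 bp window that meets the island thresholds. Wdfy4 and Stat3 kept their levels there, at 0.772% and 1.65% averaged over both libraries. The exons of Rin2, Dscaml1, Cntn1, Ccdc60, Def6, Ebf4 and Dpf3 had no value in that setting.

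The introns beside exons under 20% were often low as well. Of these 95 exons, 21 had at least 3 covered flank cytosines, a measure that did not enter the choice but can share fragments with the exon, and the flank was under 20% in 13 of these 21 in each library, with a median of 5.94% in siCon and 12.4% in siH19. Of the 184 exons at 80% or more with as many flank cytosines, the flank was under 20% in 3 in siCon and 4 in siH19, with medians of 89.7% and 89.9%. With or without flank cytosines, the 95 exons under 20% and the 1099 at 80% or more each had a median of 9 CpGs within 100 bp on either side. Their median lengths were 186 and 199 bp, and the median distances to the nearest start 11793 and 10894 bp.

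By gene, broadly used genes had highly methylated exons, and muscle and neuronal genes had lower and more variable ones. The 2137 genes with at least 10 covered exon cytosines had a median of 80.4% in siCon and 80.6% in siH19. Of the 19 ubiquitous genes, which serve splicing, transcription, transport and nutrient sensing, 0 were below that median in either library. Their own median was 92.1% in siCon and 91.8% in siH19, and they ran from 83.9% to 99.0% in siCon. Ubr4, a ubiquitin ligase, had 85.0% and 84.9%, and Sf3b1, a core splicing factor, had 99.0% and 99.7%. The 8 genes of the methyl cycle and of DNA and histone methylation had medians of 91.1% and 92.4%, from Tet1, which oxidises methylcytosine, at 65.2% and 67.5% to the histone methyltransferase gene Ehmt1 at 98.1% and 98.9%. In this list the exons of Dnmt1, the maintenance methyltransferase, had 87.7% and 86.3%. Among the genes the study followed, Cdt1, a licensing factor for replication, had 89.1% and 90.2% over 18 cytosines, and Setd2 had 94.6% and 98.3% over 10. The study followed a single differentially methylated region of each gene by PCR, whereas these values are means over internal exon cytosines.

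Genes of the contractile apparatus lay lower. Of 44 sarcomere genes listed, 28 had a covered exon cytosine and 16 had at least 10, and 14 of these 16 were below the median of all genes in both libraries. Their median was 61.0% in siCon and 63.9% in siH19. The embryonic myosin heavy chain gene Myh3 was lowest, with 22.1% and 16.9% over 12 cytosines, Actn2, the alpha-actinin of the Z-disc, had 58.6% and 62.2%, and Flnc, filamin C, was highest with 94.2% and 93.0% over 62. Of the 9 genes of excitation and contraction coupling, 8 were below the median of all genes in both libraries. Their own median was 56.5% and 58.7%. The sodium channel gene Scn4a had 39.0% and 35.7%, the calcium pump gene Atp2a1 56.5% and 58.7%, and the acetylcholine receptor subunit gene Chrna1 87.2% and 85.0%. In sarcomere genes the exons often stood above their introns. Among genes with at least 5 covered flank cytosines, the exon mean exceeded the flank in 12 of 13 in both libraries, with a median gap of 17.3 points in siCon and 15.7 in siH19. Below that minimum, exon minus flank was -20.5 points in siCon and -14.6 in siH19 in Mybpc1, with 4 flank cytosines. In Myh3, with 2, it was 22.1 and 16.9 points. The flank levels of these genes in siCon ran from 4.75% in Myom3, which encodes a protein of the M-band, to 86.4% in Obsl1, a cytoskeletal linker. The 1 sarcomere exon with enough cytosines to be tested against its own flank was in Obsl1, at chr1:75492506-75492793, and was called lower, with 53.7% and 60.7% against 87.4% and 84.9%. Over all 1370 genes with enough flank cytosines the exon mean exceeded the flank in 65.8% in siCon, with a median gap of 5.55 points. In excitation and contraction coupling the exon was the higher one in 2 of 7 genes.

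Neuronal genes were the lowest of the lists and spread over most of the scale. Of 32 neuronal genes, 29 were below the median of all genes in siCon and 30 in siH19, with medians of 49.1% and 51.0%. Shank1, a scaffold of the synapse, had 5.35% and 7.04% over 52 cytosines, Celsr3, a cadherin of axon guidance, had 49.1% and 50.5%, and Ank2, ankyrin B, had 94.6% and 93.5%. Developmental regulators had a median of 73.8% in siCon and 80.8% in siH19 over 17 genes, the middle gene being the Notch ligand gene Dll1 with 12 cytosines. They ran from Gli2, of Hedgehog signalling, at 24.0% and 24.6% to Runx1, a transcription factor of blood formation, at 98.4% and 98.9%. The 28 matrix genes had medians of 84.5% and 83.6%, with the fibrillin gene Fbn2 lowest at 31.0% and 29.2% and the laminin genes Lamb1 and Lamc1 at 83.6% and 97.6% in siCon. The lists differed in other measures as well: the median CpG count around the cytosines was 9.29 in neuronal genes, 8 in sarcomere genes, 7.04 in ubiquitous genes and 7.88 in all genes, and their part in the levels was not tested. RNA levels of these genes were not analysed here.

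**Figure D4:**
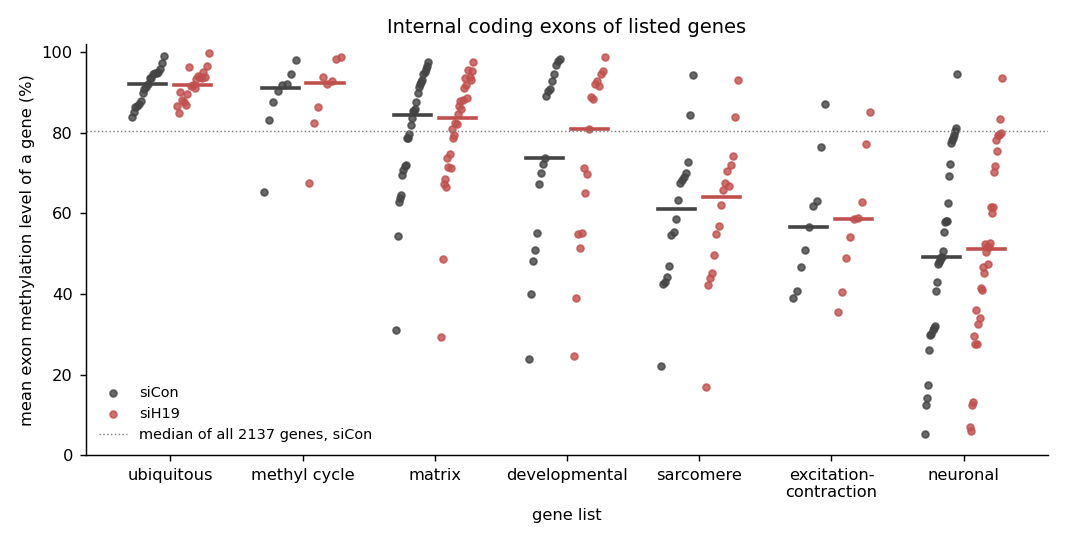
Mean methylation level (%) over the covered internal exon cytosines of each listed gene with at least 10 of them, siCon in grey and siH19 in red; each point is 1 gene, bars are list medians, and the dotted line is the median of all 2137 genes in siCon, 80.4%. Each ubiquitous gene lies above the line, and 14 of 16 sarcomere and 29 of 32 neuronal genes lie below it in siCon.

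Along the giant titin gene of the sarcomere, single exons kept their own levels in both libraries. Ttn, which encodes the spring protein titin, held the most covered exon cytosines of any gene, 327 in 50 exons, with a mean of 67.6% in siCon and 67.4% in siH19. Its 30 flank cytosines had 44.5% and 46.8%. The 23 Ttn exons with at least 5 cytosines ran from 35.5% to 93.4% in siCon and from 30.4% to 92.1% in siH19, and correlated at r = 0.964 between the libraries. The largest, an exon of 17106 bp, had 70.2% and 70.8% over 77 cytosines. In Bsn, a presynaptic scaffold, 181 cytosines had 81.2% and 79.8%. Kmt2d, a histone methyltransferase gene, had 89.9% and 89.5% over 137, and Lrp1, an endocytic receptor, 90.7% and 91.0% over 135.

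**Figure D5:**
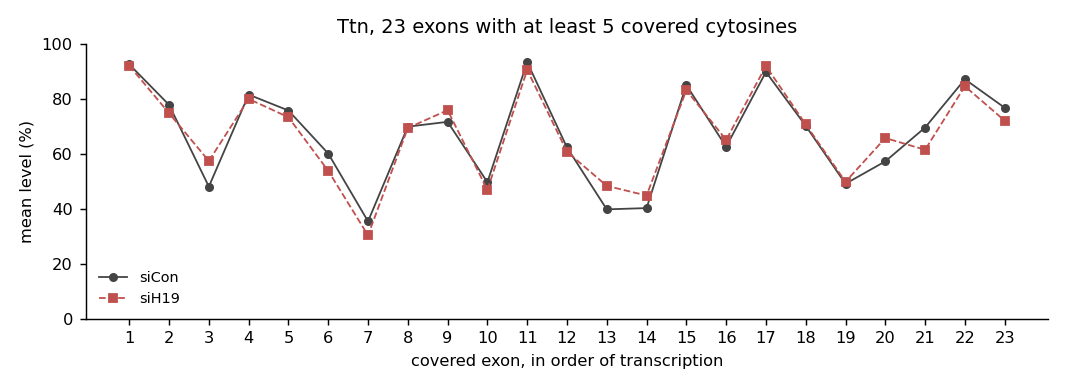
Mean methylation level (%) of each of the 23 exons of Ttn with at least 5 covered cytosines, in order of transcription, siCon as circles and siH19 as squares. Levels vary widely from exon to exon, while the libraries follow each other, from 35.5% to 93.4% in siCon and from 30.4% to 92.1% in siH19.

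Few exons differed between siCon and siH19. Of the 4411 exons with at least 5 cytosines, 2208 had a higher mean in siH19 and 2193 a lower one, with a median difference of 0.0057 points and an SD of 4.83 over exons. In an exact test stratified by cytosine, with Benjamini-Hochberg adjustment over 8369 exons, flanks and first and last coding exons, 10 internal exons were higher in siH19 and 6 lower by at least 10 points. These 16 are 0.363% of the exons tested, against 0.37% of all regions (0.239% higher and 0.131% lower). The stratified test counts a read once for each CpG it covers. With the deepest cytosine of each fragment and strand, which lets a read count once, 2 of the 16 were called, and 4 of all regions (0.0478%). They were exons of Farp1, a guanine nucleotide exchange factor, and of Actn3, the alpha-actinin of fast muscle fibres. The Farp1 exon at chr14:121235066-121235213 was named after its values were seen. Its 6 cytosines had 73.1% in siCon and 95.4% in siH19 (stratified exact test, adjusted p = 0.000264; deepest cytosines, 0.0187). In Actn3 8 cytosines had 72.8% and 83.6% (same exact tests, adjusted p = 0.0412 and 0.0438). The Actn3 exon was not called at equal depth in both libraries (10.4 points) or with cut-site cytosines kept (7.84 points). The Actn3 difference was uneven along the sequence shown above, and its lowest CpG, the first in capitals, had 45.6% and 13.8% on its strands in siCon and 42.6% and 48.6% in siH19, so that at this CpG the strands differed. Its minus-strand cytosine was also the deepest on that strand, with 29 reads in siCon and 35 in siH19. The deepest-cytosine call of Actn3 therefore rests in part on it. The remaining minus-strand cytosines, with 28 reads each in siCon, had 82.1 to 96.4% in siCon and 94.3 to 100% in siH19.

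The exons named next by rank were called only when every cytosine was counted. Fndc7, which encodes a fibronectin-domain protein, had 32.8% in siCon and 50.6% in siH19 at chr3:108862727-108862987, and Myrip, a linker of Rab27 to myosin, had 44.1% and 55.5% over 12 cytosines at chr9:120432353-120432978. Their adjusted p with the deepest cytosines were 0.154 and 0.0815. Otog, otogelin of the inner ear, had 78.2% and 91.7% at chr7:46287220-46288985 (0.676). The falls were Sptb, the beta-spectrin of red cells, with 65.3% in siCon and 38.7% in siH19, and Rps6ka1, a kinase downstream of ERK, with 77.6% and 59.6% at chr4:133861416-133861546 (0.493 and 1). In Sptb the minus strand had only 5 to 10 reads per cytosine in siCon against 37 to 75 in siH19. At equal depth Otog, Myrip, Sptb and Rps6ka1 were not called. No flank of these exons had enough covered cytosines to be set beside them. The called exons included 3 of the 74 tested exons of sarcomere genes, among them exons of Actn3 and Myh7b, against 0.239% of all regions called higher. The gene lists were chosen with earlier results of these data known, so this count is a description and not a test of the list. Of the remaining lists, 0 of 77 neuronal, 0 of 74 matrix, 0 of 54 ubiquitous and 0 of 32 developmental exons were called in the stratified test. The same held for 0 of 19 exons of excitation and contraction coupling, 0 of 12 of the methyl cycle and 0 of 3 of genes the study followed. With 0.37% of all regions called, lists of so few exons would hold few calls or none. With the deepest cytosines 1 sarcomere exon was called.

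Single cytosines gave a like picture. By the study's threshold, a Fisher p under 0.05 and at least 33 points, 392 exon cytosines were higher in siH19 and 342 lower, together 1.16% of the exon cytosines. Of all covered cytosines 1.42% passed (0.786% higher and 0.631% lower), 0.986% of those outside the cut sites, and 1.43% of those outside both cut sites and islands, as the exon cytosines are. Where the cytosine on the opposite strand of the same CpG was covered, it moved in the same direction in 289 of 602 cases, or 48.0% (exact 95% interval 44.0 to 52.1%). With an adjusted p under 0.05 over all cytosines, and no minimum difference, 17 exon cytosines were higher and 15 lower. These are 0.0506% of exon cytosines, against 0.236% of all covered cytosines, 0.0391% of those outside the cut sites and 0.0427% of those outside cut sites and islands. The strongly changed cytosines were scattered, with 664 exons holding at least 1 and 47 holding at least 2 in one direction.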

How the data were processed

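Libraries were prepared from DNA of 1 siCon and 1 siH19 culture by MspI and TaqαI digestion and bisulfite treatment. The authors aligned reads with Bismark in non-directional mode, trimmed filled-in bases and divided the reads with C by all reads with C or T to give the level of each cytosine. Per the labels, bases were called with bcl2fastq 1.8.4 and the genome was mm10 (GRCm38). Removal of duplicate reads is not given in the sources used here. The deposited files hold, per CpG cytosine and strand, a text field (another unit than a plain number) with the counts of methylated and of all reads, which was used here without normalization, and a score from 0 to 1000, the methylated share rounded down, which matched those counts in 100% of entries and was used only as that check. The depth per library was a median of 12 and 13 reads.

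Exons came from the GENCODE vM21 basic annotation. Exons of coding transcripts were merged per gene, and bases that are part of a first or last coding exon or of an untranslated region in any transcript were left out. The flank was up to 500 bp of adjacent intron without annotated exons. For CpG islands, windows of 200 bp whose GC content reached 50% and whose ratio of observed to expected CpGs reached 0.6 were merged into 180831 stretches. Those that also met both thresholds as a whole were the 75059 islands, and the rest counted as outside islands. A level of an exon, gene or class is the unweighted mean over its cytosines, with strands kept apart. Exon against flank was tested per library on summed reads (Fisher's exact test, two-sided), and siH19 against siCon by a two-sided exact conditional test stratified by cytosine, both for at least 5 cytosines and with Benjamini-Hochberg adjustment over all pairs or regions. The same test was run on each cytosine, with adjustment over all 3416032. The tests were checked on simulated data and against scipy 1.17.1 (Python 3.11.15, numpy 2.4.6, pandas 2.3.3, numba 0.67.0, figures with matplotlib 3.10.9). Coordinates count from 1.

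Named by rule were the 10 lowest exons with at least 8 cytosines and 100 reads per library, the 5 genes with the most cytosines, the 6 called pairs with the largest gap in each direction, up to 5 called exons in each direction (at least 8 cytosines, same direction on both strands), and the lowest, middle and highest gene of each list. Dnmt1 and single CpGs of printed exons were named outside it. Some results that this rule selects are not reported here. The exons, the lists and this rule were chosen with earlier results of these data known. Alternatives covered read minimums, strands, depth, cut sites, repeats, flank length, distance to starts, island definitions, thresholds and weighting. Sex chromosomes and the remaining positions were not used beyond the adjustment and the background shares.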

Additional observations from a re-analysis of the deposited data

How the results depend on the processing

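Exons stayed above the flanking intron in both libraries under every alternative run. The difference was 5.35 points in siCon and 5.31 in siH19 with a flank of 200 bp, 5.92 and 5.85 with islands of at least 500 bp, 5.24 and 5.17 more than 5 kb from starts, 5.29 and 5.23 outside repeats, 5.23 and 4.97 on shared fragments, and 6.58 and 6.49 with strands summed. It was 3.13 and 3.03 with cut-site cytosines kept, 5.11 in siH19 when weighted by reads, and 4.60 and 4.59 outside every window that meets the island thresholds, a setting chosen after seeing the data. The exon mean was higher in siH19 by 0.554 points when weighted by reads and by 0.447 with cut-site cytosines kept.

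Called pairs with a higher and a lower exon numbered 62 and 30 at a read minimum of 10, 15 and 6 with strands summed, 457 and 255 with cut sites kept, 32 and 15 outside every island window, 10 and 4 with at least 10 cytosines, and 68 and 34 at 20 points. With the deepest cytosine per fragment and strand 66 had a higher exon. Exons called higher and lower in siH19 numbered 3 and 2 with strands summed, 3 and 1 at equal depth, 2 and 0 with at least 10 cytosines, 3 and 2 at an adjusted p of 0.01, 2 and 0 with the deepest cytosines, and 49 and 48 when reads were summed before Fisher's exact test. Outside every island window 2 were lower, and at 20 points 2 were higher. Strongly changed exon cytosines numbered 121 higher and 106 lower with strands summed, and 837 and 594 with cut sites kept. With an adjusted p under 0.05 in place of that threshold, and no minimum difference, 17 were higher and 15 lower. Fewer or more cytosines were tested in most of these settings, and beyond that the cause was not tested. None of the 12 pairs and 7 exons named by rule changed direction in any alternative in which it was tested. Many were not tested in the stricter settings. Of the 12 pairs, 9 were tested at a read minimum of 10, 3 with strands summed and 1 outside every island window. Kif5a was in none of these settings, nor in that with islands of at least 500 bp. Of the 7 exons, 2 were tested with strands summed. Leaving aside the deepest-cytosine setting, whose calls are given above, the pairs lost their call in 1 of 93 alternative values (Fbxl19 with cut sites kept) and the exons that differed between libraries in 10 of 40. At equal depth 5 of these 7 exons lost it, and with cut sites kept 3 of 7. With cut sites kept the 10 lowest exons had 8.89 to 22.0%, and with islands of at least 500 bp Rin2 had 4.33%. List medians in siCon stayed below that of all genes for sarcomere (60.4 to 67.7%) and neuronal genes (43.7 to 55.3%) and above it for ubiquitous genes (91.4 to 92.8%).

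With 1 library per group, culture differences cannot be told apart from the knockdown. No paired analysis was possible because each group had 1 library.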
